A study of Danio rerio with 24 samples.

Results

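The 8 genes described here encode enzymes of gluconeogenesis, glycolysis and glycogen turnover in the liver of larval zebrafish: pck1 (ENSDARG00000013522), pck2 (ENSDARG00000020956), fbp1a (ENSDARG00000021366), fbp1b (ENSDARG00000020364), gck (ENSDARG00000068006), pklr (ENSDARG00000042010), gys2 (ENSDARG00000004904) and pygl (ENSDARG00000002197). They were chosen by name, as the rows of the count table whose Ensembl ID carried one of these symbols, and all 8 were found among 32520 genes. The study asked how overexpression of the microRNA miR-21 in hepatocytes and a diet rich in cholesterol alter the liver. RNA was sequenced from livers dissected at 13 days post fertilization (dpf), and each of the 24 libraries held 13 pooled livers of 1 clutch.

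From 6 dpf larvae ate either a commercial larval feed, GEMMA Micro 75, as the normal control diet (NCD), or the same feed with 10% cholesterol added, as the high-cholesterol diet (HCD). Transgenic larvae (miR-21OE) carried a construct in which the hepatocyte promoter fabp10a drives dre-mir-21-1 and the green fluorescent protein Dendra2, with cryaa:mCherry as a red lens marker. Wild-type larvae (WT) were siblings without the transgene. No group carried the promoter, Dendra2 and mCherry without dre-mir-21-1, so the parts of the construct cannot be told apart. The miR-21OE line was outcrossed to AB fish in each generation and came from 3 founders, and the founder behind each library was not given in the sources used here. WT-NCD and WT-HCD had 9 libraries each, 1 in each of 9 labelled batches. The labels of batches 1 and 2, of 5 and 6, and of 8 and 9 differ only in their last letter. Whether such batches are related is not stated. miR-21OE-NCD and miR-21OE-HCD had 3 libraries each, in batches 7, 8 and 9, which are the only batches that held all 4 groups. Libraries are named here by group and number. WT numbers are batch numbers, and miR-21OE numbers 1, 2 and 3 belong to batches 7, 8 and 9.

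The liver keeps blood glucose steady by storing it as glycogen after a meal and releasing it between meals. Gluconeogenesis builds glucose from lactate, amino acids and glycerol, and several of its steps bypass reactions of glycolysis that cannot run backwards. Pyruvate kinase, which closes glycolysis, and phosphoenolpyruvate carboxykinase, which opens the way back, act on the same metabolite from opposite sides. In mammals, transcription of these enzymes follows insulin, glucagon and glucose itself.

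Total counts per library ranged from 16942574 to 36641566. Levels are counts per 1000000 counts of a library (CPM), with library totals adjusted by the TMM method over the 24 libraries. CPM is not corrected for gene length, so levels were compared between libraries and never between genes. Of the tissue markers checked, all 11 hepatocyte markers were detected in each group, with a summed level of 16948 to 93099 CPM. Exocrine pancreas markers varied between 451 and 57897 CPM in sum, with miR-21OE-NCD 3 at the top. The noncoding RNA rn7sl1 took 1.72% to 2.77% of the counts of each library in batches 1 to 4, and each later library gave it 6.45% to 13.1%. In RNA from whole livers, fewer cells of a type and less RNA per cell cannot be told apart. The strand setting of the counting was not given in the sources used here, so reads of overlapping genes and of near-identical copies, such as those of the pairs fbp1a and fbp1b or pck1 and pck2 where they are alike, may have been assigned with error.

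All 8 genes were detected in all 24 libraries, and gck and pklr spanned the widest ranges. The level of gck ran from 0.26 to 313 CPM and that of pklr from 312 to 23805 CPM. The ranges were 5091 to 62442 CPM for pck1, 130 to 827 CPM for pck2, 4.7 to 41.6 CPM for fbp1a, 182 to 1143 CPM for fbp1b, 370 to 1119 CPM for gys2 and 118 to 1834 CPM for pygl. A single library, WT-HCD 1, set the minimum of pck1, pck2, fbp1b, pklr and pygl with TMM scaling. The TMM factor that adjusts its library total was 2.10, beside 0.71 to 1.44 in the other libraries. Without this adjustment WT-HCD 1 set the minimum of pklr and pygl only. The minimum was then in WT-NCD 1 for pck1 (9103 CPM), WT-HCD 6 for pck2 (242 CPM) and miR-21OE-HCD 2 for fbp1b (213 CPM). The transcripts of pck1 alone took 0.91% to 4.6% of all counts of a library.

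**Figure D1:**
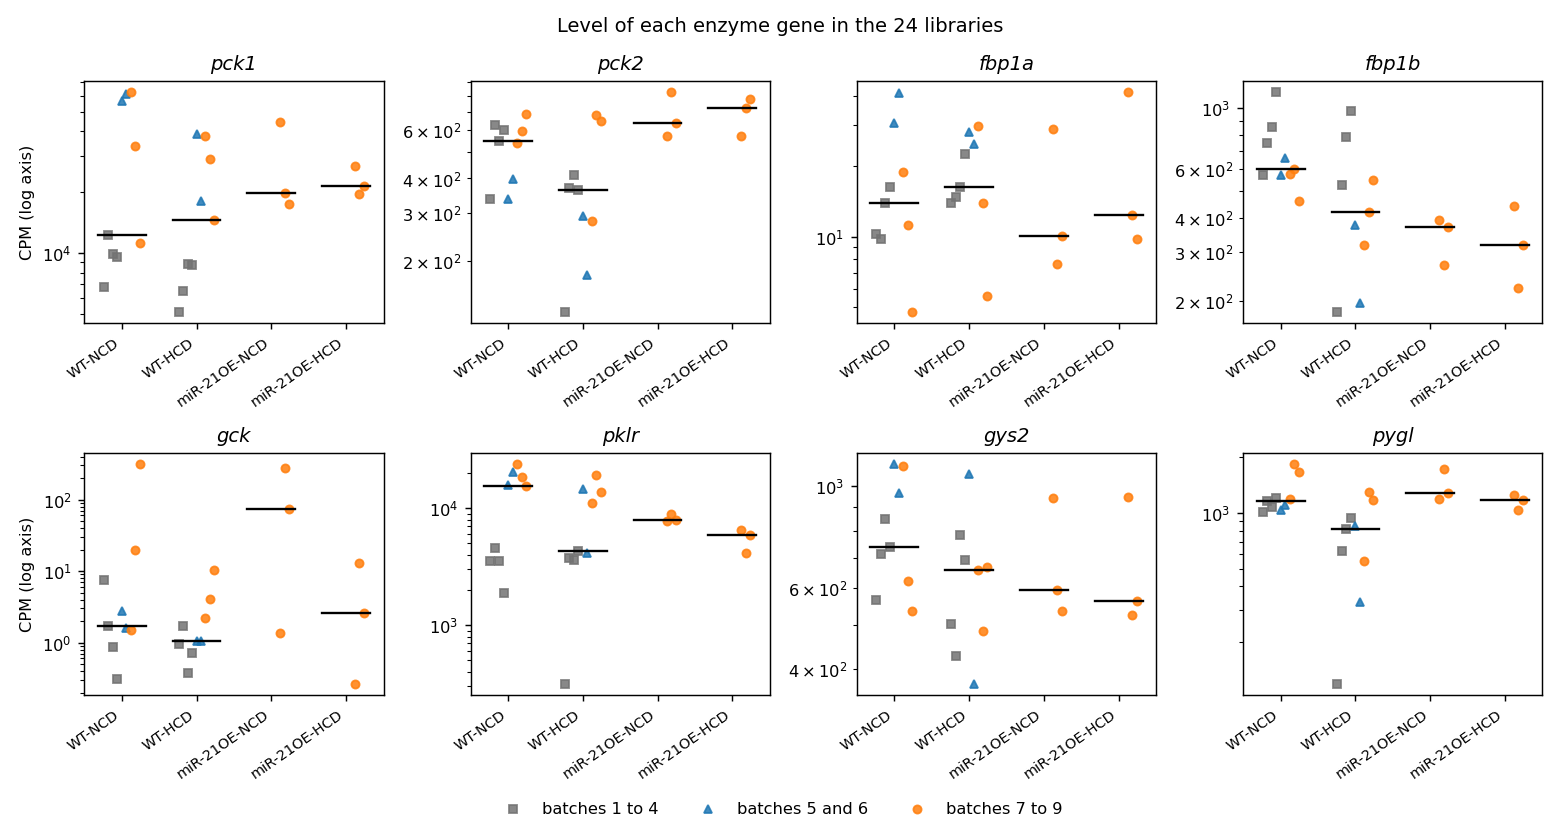
Level of each of the 8 genes in CPM on a log axis, 1 panel per gene, with 1 point per library in the 4 groups and a black line at the group median. Gray squares are batches 1 to 4, blue triangles batches 5 and 6 and orange circles batches 7 to 9. The gray WT points of pck1 (5091 to 12305 CPM) and pklr (312 to 4595 CPM) sit low in their groups.

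The spread of pck1 and pklr followed the batches. Cytosolic phosphoenolpyruvate carboxykinase, the product of pck1, makes phosphoenolpyruvate from oxaloacetate and is a classical point of control of gluconeogenesis. In WT livers its level was 8466 ± 2280 CPM (SD, n = 8) in batches 1 to 4 and 36365 ± 18912 CPM (SD, n = 10) in batches 5 to 9. The 8 libraries of batches 1 to 4 (5091 to 12305 CPM) overlapped the later ones only through WT-NCD 9 at 11227 CPM. Liver pyruvate kinase, the product of pklr, had 3208 ± 1417 CPM (SD, n = 8) in WT livers of batches 1 to 4 and 15693 ± 5427 CPM (SD, n = 10) in batches 5 to 9. Here too 1 later library, WT-HCD 6 at 4142 CPM, fell into the range of the early ones. The higher share of rn7sl1 marked the same later batches, and its part in these levels was not tested. Genotypes were compared within batches 7 to 9.

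The comparison of miR-21OE with WT livers asked which of these enzymes follow the transgene. In the WT-NCD livers of batches 7, 8 and 9, pklr stood at 23805, 18432 and 15593 CPM. The miR-21OE-NCD livers of the same batches had 7729, 8888 and 7851 CPM. On HCD the WT livers had 11175, 19288 and 13872 CPM, and the miR-21OE livers 6564, 4104 and 5950 CPM. All 6 miR-21OE libraries therefore lay below all 6 WT libraries of these batches, a pattern that 0.582% of the 21660 genes tested showed. Within a batch, miR-21OE livers held between 0.213 and 0.587 times the pklr level of their WT counterparts. They were lower in 6 of 6 pairs, as was the case for 3.95% of all genes. WT livers of batches 1 to 4 and WT-HCD 6 overlapped the range of the miR-21OE livers or lay below it, so the separation held within the shared batches only.

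**Figure D2:**
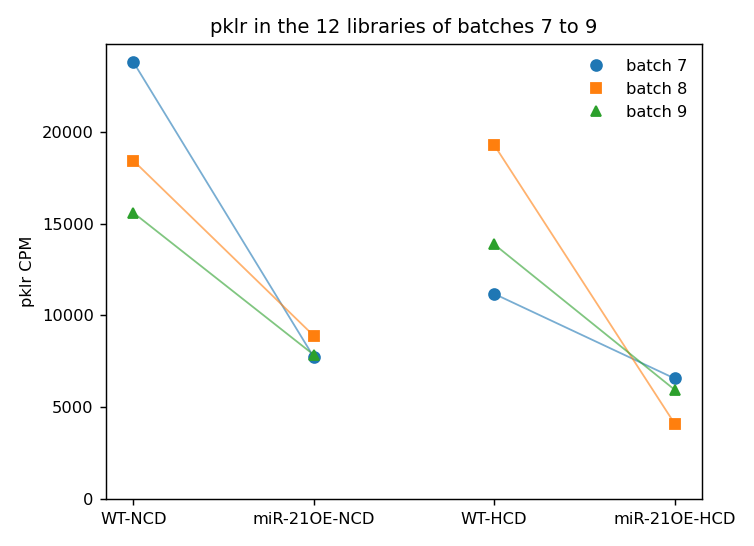
Level of pklr in CPM, on an axis from 0, in the 12 libraries of batches 7 (circles), 8 (squares) and 9 (triangles). Lines join WT and miR-21OE livers of the same batch and diet, and all 6 lines descend, from 11175 to 23805 CPM in WT to 4104 to 8888 CPM in miR-21OE.

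In the averaged contrast of genotype over both diets, pklr was the 1 gene of the 8 that passed the threshold, where 0.388% of all genes did and 0.171% did so with a lower level. Its log2 fold change (L2FC) was -1.33 (SE 0.20), and the P-value of the edgeR test, adjusted for all genes by the Benjamini-Hochberg method (padj), was 0.0171. DESeq2 called pklr as well, with a padj of 4.6e-08, and none of the other 7 genes, where it called 2.44% of all genes. Leaving out 1 library at a time moved the L2FC between -1.41 and -1.20, but without WT-NCD 8, miR-21OE-NCD 1, miR-21OE-NCD 3, miR-21OE-HCD 2 or miR-21OE-HCD 3 the padj was between 0.0504 and 0.0581. With the batch as a block the padj was 0.00488, where 2.17% of all genes were called, and the call was kept in 12 of 12 fits that left out 1 library (padj = 0.00233 to 0.0245). A fit of all 24 libraries with the batch as a block gave the same L2FC of -1.33 and lost the call (padj = 0.106), where 2.82% of all genes were called. Summed hepatocyte markers were 0.909 to 0.938 times the WT level on NCD, and 1.69, 0.791 and 1.05 times it on HCD. In none of the 6 pairs was their ratio as low as that of pklr, and the part of the hepatocyte share in the pklr difference was not tested.

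For each diet alone, 0 of the 8 genes passed the edgeR test. The L2FC of pklr was -1.23 on NCD (SE 0.28, padj = 0.342) and -1.42 on HCD (SE 0.28, padj = 0.207). In these contrasts 0.0277% and 0.00462% of all genes passed, and 2 of the 8 genes on NCD (fbp1b, pklr) and 1 on HCD (pklr) had an unadjusted p under 0.05. These shares are at the adjusted threshold and give no background for counts at an unadjusted p. DESeq2 called pklr lower on NCD and on HCD, with padj of 0.00599 and 0.000569, where it called 0.489% and 0.379% of all genes. The interaction of genotype and diet for pklr was -0.19 (SE 0.39), so a difference between the diets of that size was not resolved. In the interaction none of the 8 genes passed, or had an unadjusted p under 0.05, by edgeR or DESeq2, and 0% of all genes passed.

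The other enzymes gave no call in the averaged contrast. Fructose-1,6-bisphosphatase takes a phosphate off fructose 1,6-bisphosphate on the way to glucose, and zebrafish carry 2 genes for it here, fbp1a and fbp1b. In the shared batches fbp1b stood at 576, 603 and 461 CPM in WT-NCD and at 394, 269 and 369 CPM in miR-21OE-NCD. On HCD it stood at 320, 421 and 548 CPM in WT and at 440, 222 and 319 CPM in miR-21OE. The miR-21OE livers were lower in 5 of 6 pairs, and batch 7 on HCD went the other way. The L2FC was -0.53 (SE 0.21, padj = 0.45). Its paralog fbp1a, at a far smaller number of counts (109 to 998 per library), had miR-21OE above WT in 4 of 6 pairs and an L2FC of 0.39 (SE 0.53).

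The 2 carboxykinase genes differed by less than the spread between libraries. The averaged L2FC was -0.33 (SE 0.40) for pck1, which was lower in miR-21OE in 4 of 6 pairs. In both pairs of batch 9 pck1 in miR-21OE was instead 1.48 to 1.56 times the WT level. For pck2, which encodes the mitochondrial form of the enzyme, it was 0.26 (SE 0.22), with miR-21OE above WT in 5 of 6 pairs. The pair that stood out was miR-21OE-HCD 1 at 572 CPM beside WT-HCD 7 at 280 CPM.

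Of the genes of glycogen turnover, gys2 and pygl showed no genotype difference at this precision. Liver glycogen synthase (gys2), which lengthens glycogen chains, had an L2FC of 0.02 (SE 0.25). Liver glycogen phosphorylase (pygl), which frees glucose 1-phosphate from glycogen, had 0.02 (SE 0.22). For pygl, WT-HCD 7 at 552 CPM was low beside miR-21OE-HCD 1 at 1256 CPM, and the other 5 pairs were between 0.769 and 1.00 times the WT level. Across the 8 genes the median L2FC of the averaged contrast was 0.02, beside -0.01 over all genes tested.

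**Figure D3:**
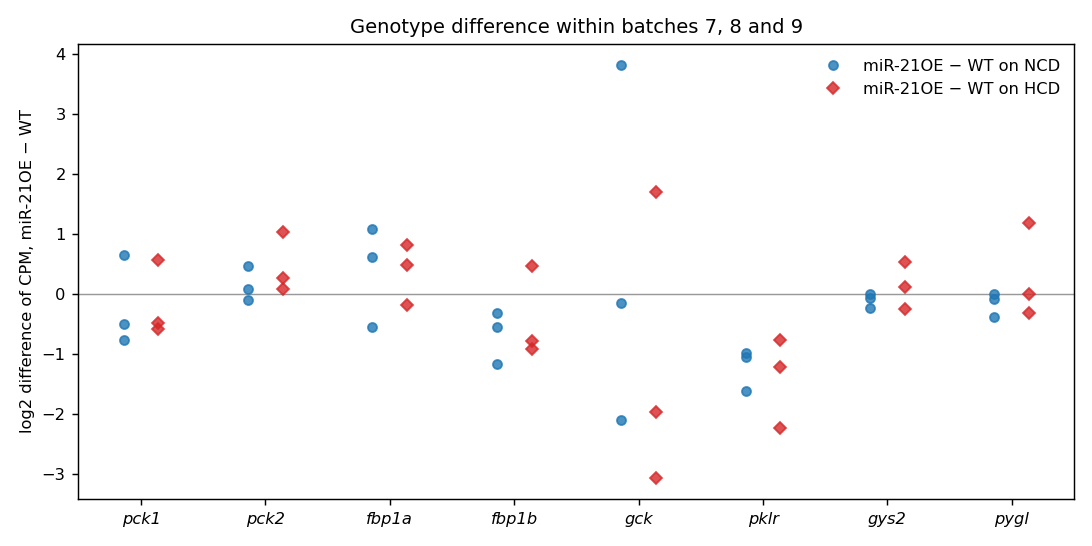
Difference of log2 CPM between miR-21OE and WT livers of the same batch and diet for the 8 genes, with 3 points on NCD (blue circles) and 3 on HCD (red diamonds) per gene and a gray line at no difference. All 6 points of pklr lie below the line, between -2.23 and -0.77, and those of gck spread from -3.07 to 3.82.

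Other genes of the same pathways were taken from 5 lists (129 gene IDs, of which 126 were tested here), and 3 of them passed the averaged edgeR test, where 0.388% of all genes did. The lists were chosen with earlier results of these data known. Shares of all genes, here and below, are therefore no fair background for counts of the list genes. LDHD, whose product oxidizes D-lactate to pyruvate, fell by 3.15 on the log2 scale (SE 0.29, padj = 0.00115). It stood at 9.12 to 21.4 CPM in the 6 WT libraries of the shared batches and at 1.06 to 2.67 CPM in the 6 miR-21OE libraries, below every one of the 18 WT libraries. DLAT, a subunit of the pyruvate dehydrogenase complex that turns pyruvate into acetyl-CoA, rose by 1.23 (SE 0.15, padj = 0.00729), from 35.8 to 52.1 CPM in WT to 82.5 to 109 CPM in miR-21OE. MDH2, mitochondrial malate dehydrogenase, which interconverts malate and oxaloacetate, rose by 0.95 (SE 0.14, padj = 0.0171), from 154 to 190 CPM to 297 to 395 CPM. Neither genotype range overlapped the other for these 3 genes, which were named because they were called. Without WT-NCD 8, miR-21OE-NCD 3 or miR-21OE-HCD 3 the padj of MDH2 lay between 0.0545 and 0.0583.

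With the batch as a block, 13 of the 126 genes were called, 6 higher and 7 lower, where 2.17% of all genes were. The added calls with the smallest padj were PC, pyruvate carboxylase, which makes oxaloacetate from pyruvate at the entry of gluconeogenesis (L2FC -1.03, SE 0.18, padj = 0.0108), PDK1, a kinase that switches pyruvate dehydrogenase off (1.07, SE 0.19, padj = 0.0142), and GOT2, a mitochondrial aspartate aminotransferase (-0.72, SE 0.14, padj = 0.0196). The second gene for this aminotransferase, got2b, was called in the other direction (0.64, SE 0.14, padj = 0.033). PDHB, like DLAT a subunit of the pyruvate dehydrogenase complex, was called lower (-0.64, SE 0.12, padj = 0.0204). Its level was lower in miR-21OE in 3 of 3 pairs on each diet. From the glycogen list, 2 IDs named PPP1R3C, ENSDARG00000071005 and ENSDARG00000014554, were called lower (-1.80 and -0.76, padj = 0.0364 and 0.0434). Each of these IDs was lower in miR-21OE in 3 of 3 pairs on NCD and 2 of 3 on HCD. When 1 library was left out, the block call was kept in 12 of 12 fits for PC and 11 for PDK1. It was kept in 5 of 12 for GOT2 and PDHB, and in 2 of 12 for got2b and each PPP1R3C ID. A second ID named PC was not called, with miR-21OE lower in 2 of 3 pairs on NCD and 1 of 3 on HCD. On NCD alone LDHD was also called without a block, at -3.45 (SE 0.42, padj = 0.0291), and this call was lost in 7 of the 12 fits that left out 1 library, with padj up to 0.186.

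The comparison of WT-HCD with WT-NCD over all 9 batches asked what the cholesterol diet does to these enzymes without the transgene. In the edgeR test none of the 8 genes passed, where 1.15% of all genes did, and 2 of them (gck and pygl) had an unadjusted p under 0.05. DESeq2 without a block also called 0 of the 8 and 4.11% of all genes, with 2 genes (gck and pygl) under that limit. The fit with the batch as a block called 0 of the 8 beside 7.48% of all genes, with 5 genes (fbp1b, gck, gys2, pck2 and pygl) under that limit. Each share of all genes given here is at the adjusted threshold, so it is no background for the counts at an unadjusted p. Without the block, 7 of the 8 L2FC values were negative in the edgeR test, with a median of -0.51 beside 0.01 over all genes tested. Scaling by library totals raised the median of all genes to 0.38 and that of the 8 genes to -0.24, so the shift of the 8 genes relative to all genes stayed at a similar size while its absolute value depended on the scaling.

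Among these, pygl had the most regular pattern, lower on HCD in 9 of 9 batches. It ranged from 1012 to 1834 CPM with a median of 1165 in WT-NCD and from 118 to 1294 CPM with a median of 819 in WT-HCD. HCD livers held 0.117 and 0.299 times the NCD level in batches 1 and 6 and 0.464 to 0.821 times in the other 7. Such a 9 of 9 pattern was found for 2.76% of all genes. The L2FC was -0.75 (SE 0.32), for a padj of 0.277 without the batch block and 0.0583 with it. The block fit passed the threshold when batch 1 lost its HCD or NCD library (padj = 0.0428 and 0.0429), which were 2 of the 18 fits that left out 1 library. DESeq2 with the block called it, with a padj of 0.00213, along with pck2 and fbp1b, where it called 13.2% of all genes. The edgeR fit of all 24 libraries with the block, whose diet difference in WT also draws on all 9 batches, called the same 3 genes lower, beside 8.13% of all genes.

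The genes of gluconeogenesis were lower on HCD in 8 of 9 batches each with TMM scaling, with the exception of fbp1a. Scaled by library totals, further batches changed direction. For pck1, batches 1, 3 and 4 then stood at 10692, 11504 and 11038 CPM on HCD. The NCD libraries of these batches stood at 9103, 11268 and 10324 CPM. For fbp1b, batches 3 and 4 stood at 1023 and 1237 CPM on HCD, beside 976 and 1229 CPM on NCD. In batch 9 pck2 stood at 604 CPM on HCD and 596 CPM on NCD. These batches came on top of those already higher on HCD with TMM scaling. The ranges that follow are with TMM scaling. For pck2, WT-NCD ranged from 336 to 690 CPM with a median of 546 and WT-HCD from 130 to 682 CPM with a median of 362. Batch 8 alone was higher on HCD, and the L2FC was -0.47 (SE 0.27), for a padj of 0.469 without the block and 0.0528 with it. For fbp1b, WT-NCD ranged from 461 to 1143 CPM with a median of 603 and WT-HCD from 182 to 975 CPM with a median of 421. Here batch 9 alone was higher on HCD, and the L2FC was -0.51 (SE 0.30), for a padj of 0.477 without the block and 0.0858 with it. The block fit called pck2 when either library of batch 8 or 9 was left out, with padj of 0.0305 to 0.0396. It called fbp1b when either library of batch 9 was, with padj of 0.0345 and 0.0428. These were 4 of 18 such fits for pck2 and 2 of 18 for fbp1b. Leaving out 1 library removes the pair of its batch from the diet difference. Batch 8 for pck2 and batch 9 for fbp1b were the pairs that went the other way, so these calls add no support. The share of genes lower on HCD in at least 8 of 9 batches was 7.75%.

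For pck1 the ranges were 6821 to 62442 CPM with a median of 12305 in WT-NCD and 5091 to 38574 CPM with a median of 14530 in WT-HCD. The HCD median was the higher one although HCD was lower than NCD of the same batch in 8 of 9 batches. Its L2FC was -0.65 (SE 0.55, padj = 0.67) without the block and -0.49 (SE 0.25, padj = 0.288) with it. By contrast fbp1a was higher on HCD in 7 of 9 batches, from 4.7 to 41.2 CPM in WT-NCD and from 5.6 to 29.6 CPM in WT-HCD, with an L2FC of 0.12 (SE 0.36, padj = 0.942). The paralogs fbp1a and fbp1b thus had opposite signs in 6 of the 9 batches, and this difference between them was not tested.

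Among the glycolytic genes, pklr on HCD was 0.0882 times the NCD level in batch 1, 0.205 times in batch 6 and 0.469 times in batch 7, but 2.29 times in batch 4. It was lower in 6 of 9 batches with TMM scaling, with an L2FC of -0.51 (SE 0.60, padj = 0.791). The block fit gave -0.61 (SE 0.43, padj = 0.478). Scaled by library totals, pklr was also higher on HCD in batch 2 (5455 beside 4956 CPM) and batch 5 (12798 beside 12572 CPM). The glycogen synthase gene gys2 was lower in 8 of 9 batches, from 536 to 1119 CPM with a median of 739 in WT-NCD and 370 to 1065 CPM with a median of 659 in WT-HCD. Its L2FC was -0.35 (SE 0.23, padj = 0.551) without the block and -0.37 (SE 0.17, padj = 0.236) with it. The L2FC without the block became 0.01 when library totals set the scale. Batches 1, 3, 4 and 5 were then higher on HCD for gys2 too, beside batch 9.

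**Figure D4:**
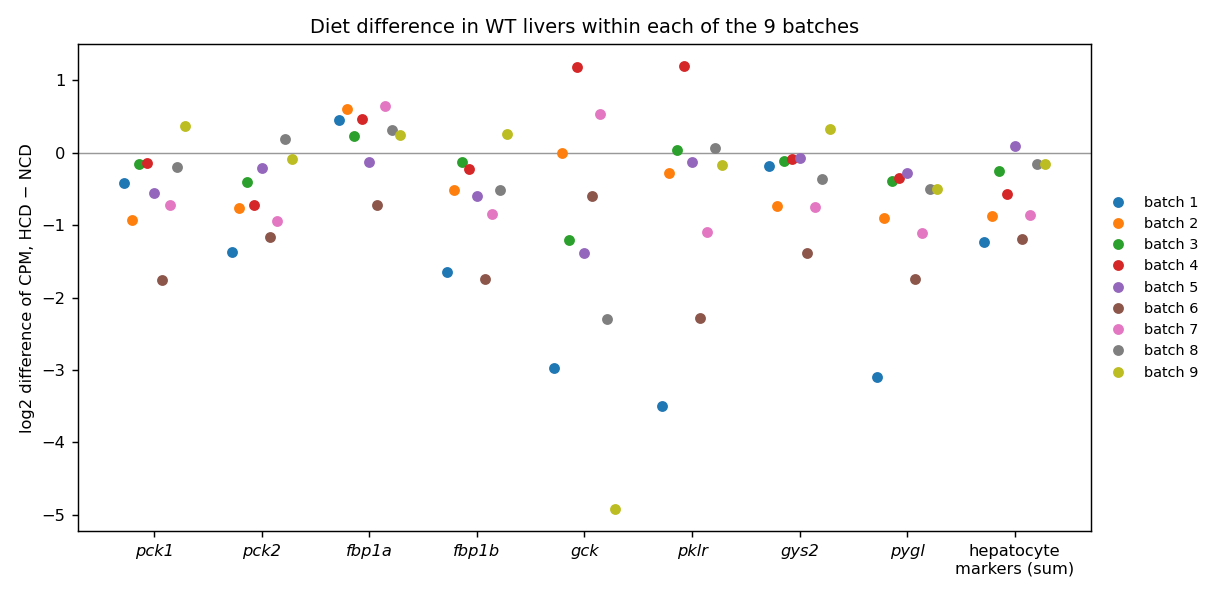
Difference of log2 CPM between WT-HCD and WT-NCD livers of the same batch for the 8 genes and for the summed level of 11 hepatocyte markers, with 1 point for each of the 9 batches and a gray line at no difference. Batches 1 and 6 hold the lowest points of pklr (-3.50 and -2.29), pygl (-3.10 and -1.74) and the hepatocyte markers (-1.24 and -1.20).

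The hepatocyte markers moved with these diet differences. Their summed level was lower on HCD in 8 of 9 WT batches, with a mean log2 difference of -0.58 ± 0.49 (SD, n = 9 batches). It was 39935 CPM in WT-NCD 1 and 16948 CPM in WT-HCD 1, and 57934 CPM in WT-NCD 6 and 25291 CPM in WT-HCD 6. In batches 1 and 6, 8 and 11 of the 11 markers were lower on HCD. In batches 2, 4, 7 and 8 this held for 11, 10, 9 and 9 markers. Only 6, 3 and 5 markers were lower in batches 3, 5 and 9, so the sum did not stand for each marker. In batch 5 the sum on HCD was 1.07 times the NCD level. With TMM scaling pygl, pck1, pck2, fbp1b, pklr and gys2 were still lower on HCD there, at 0.66 to 0.952 times. The part of the hepatocyte share in the diet differences was not tested.

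The gene with the widest range, gck, encodes glucokinase, the hexokinase of liver and pancreatic beta cells that phosphorylates glucose at high concentrations. In batches 2 to 7 it stayed at 0.26 to 2.76 CPM in all groups, which was 6 to 57 counts per library. In batch 8 it reached 19.7 CPM in WT-NCD and 277 CPM in miR-21OE-NCD, beside 4.02 and 13.0 CPM on HCD. In batch 9 it reached 313 CPM in WT-NCD and 73.2 CPM in miR-21OE-NCD, beside 10.3 and 2.63 CPM on HCD. The high values thus fell on NCD livers of batches 8 and 9, in both genotypes, and the HCD livers of the same batch and genotype had 0.0330 to 0.204 times as much. The labels of batches 8 and 9 differ only in their last letter, so these 2 batches may not be unrelated.

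**Figure D5:**
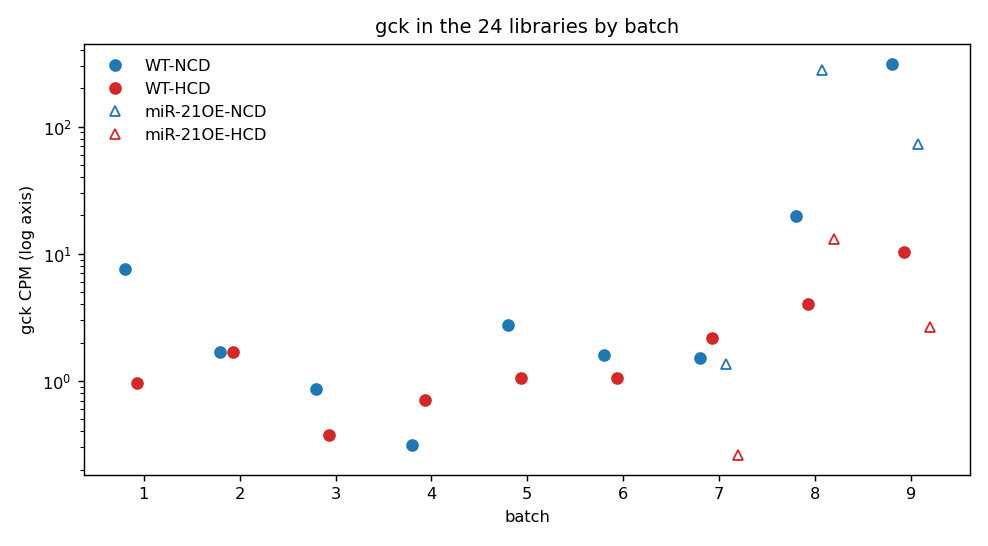
Level of gck in CPM on a log axis by batch, with 1 point per library (filled circles WT, open triangles miR-21OE, blue NCD, red HCD). The 4 NCD libraries of batches 8 and 9 stand at 19.7 to 313 CPM, above the 4 HCD libraries of these batches at 2.63 to 13.0 CPM.

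In WT livers gck was lower on HCD in 7 of 9 batches with TMM scaling, and in batch 2 that difference was only 0.994 times. Scaled by library totals, gck was also higher on HCD in batch 2 (2.44 beside 1.83 CPM) and batch 6 (1.43 beside 1.15 CPM). These came on top of batches 4 and 7. The L2FC was -3.94 (SE 1.19, padj = 0.109 by edgeR), and without WT-NCD 9 it was -0.87 (padj = 0.635), so its size rested on that library. The batch block gave -1.47 (padj = 0.137). In miR-21OE livers gck was lower on HCD in 3 of 3 batches, at 0.190, 0.0467 and 0.0360 times the NCD level, and the L2FC was -4.47 (SE 1.93, padj = 1.00). Between genotypes gck had no steady direction, with miR-21OE at 0.119 to 14.1 times the WT level.

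Since glucokinase is also made in pancreatic beta cells, 5 endocrine pancreas markers, insulin included, were summed beside it. Their sum was 40.3 CPM in WT-NCD 9, 47.1 CPM in WT-NCD 8 and 72.9 CPM in miR-21OE-NCD 3, but 0.54 CPM in miR-21OE-NCD 2, where gck was at 277 CPM. It was 112 CPM in WT-NCD 1 and 58.8 CPM in WT-HCD 2, where gck stood at 7.6 and 1.69 CPM. Of the 4 libraries with gck at 19.7 CPM or more, 3 thus carried these markers at 40.3 to 72.9 CPM and 1 had them near 0, and the part of beta cells in the gck levels was not tested.

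In the 3 shared batches alone, none of the 8 genes passed the edgeR test of diet in WT or in miR-21OE livers, where 0% of all genes did in either. In each of these contrasts 1 gene, gck, had an unadjusted p under 0.05, and DESeq2 called 0 of the 8 beside 0.355% and 0.0877% of all genes, with 2 genes under that limit in each. Again the shares of all genes are at the adjusted threshold and not at that limit. In miR-21OE livers pklr was lower on HCD in 3 of 3 batches, at 0.849, 0.462 and 0.758 times, with an L2FC of -0.57 (SE 0.27, padj = 1.00). For pck2, gys2 and pygl the miR-21OE difference lay at 0.02, -0.05 and -0.29, beside -0.18, -0.33 and -0.64 in WT of the same batches. The interaction estimates were 0.20 (SE 0.44), 0.28 (SE 0.49) and 0.35 (SE 0.44), within about 1 SE of no difference.

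Of the pathway genes around these enzymes, 1 of 128 tested passed the edgeR test of diet in WT livers, a smaller share than the 1.15% of all genes. NR1H3, the liver X receptor, a nuclear receptor for oxysterols that turns on genes of cholesterol disposal, rose by 0.88 (SE 0.20, padj = 0.0336) and was higher on HCD in 8 of 9 batches. Its call was lost without WT-NCD 1, 2, 3, 8 or 9 or WT-HCD 2, 4 or 5, with padj of 0.0506 to 0.0676. With the batch as a block 25 genes were called, 5 higher and 20 lower, where 3.4% of all genes were called lower. The median L2FC of the 128 genes was then -0.14, beside 0.04 over all genes.

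The block calls with the smallest padj went in both directions. HK2, a hexokinase of tissues other than liver, rose by 2.32 (SE 0.32, padj = 0.00155), and ALDOA, the aldolase typical of muscle, rose by 1.1 (SE 0.16, padj = 0.00238). ME1, cytosolic malic enzyme, which supplies NADPH for lipid synthesis, fell by 1.46 (SE 0.23, padj = 0.00294). The L2FC of the 2 gene IDs named MPC2, a subunit of the mitochondrial pyruvate carrier, was -1.11 and -1.05 (padj = 0.00314 and 0.00461). The gene mlxipl, which encodes ChREBP, a transcription factor activated by glucose and known in mammals to act on Pklr, fell by 0.94 (SE 0.16, padj = 0.00459). In the averaged genotype contrast mlxipl was lower too, at -0.78 with the block (SE 0.15, padj = 0.0209), and not called without it (padj = 0.436). That block call was kept in 5 of 12 fits that left out 1 library. The miR-21OE livers were lower in 3 of 3 pairs on each diet, and a link of mlxipl with pklr was not tested. For diet, mlxipl was also the 1 pathway gene called in the WT livers of the shared batches with the block. Its L2FC there was -1.35 (SE 0.22, padj = 0.0491), where 0.0831% of all genes were called. This call was kept in 2 of 12 fits that left out 1 library. These diet differences share the lower summed hepatocyte markers of WT-HCD livers, and the part of that was not tested.

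The genes most like each enzyme were sought among 11697 genes over the 24 libraries, by the Pearson correlation of log2 CPM after the mean of each batch was taken out. Libraries of 1 batch and their depth are shared by all genes, so these values are a description. A gene whose pattern was close to that of fbp1b was SHMT1, a serine hydroxymethyltransferase (r = 0.97). That of pygl was closest to kynu, which acts in tryptophan breakdown, and apoa1b, an apolipoprotein of high-density lipoprotein (0.98 each), and that of pck2 to SLC25A20, the mitochondrial carnitine carrier (0.96), and UPB1, an enzyme of pyrimidine breakdown (0.95). The pattern of gck was closest to EBP, an isomerase of cholesterol synthesis (0.83), and AACS, which activates acetoacetate for lipid synthesis (0.81). For pklr the closest were ALDH9A1 (0.92) and eif5a (0.91), for pck1 PLA2G15 (0.95) and rusc2 (0.94), for gys2 CDADC1 (0.94) and HAL (0.93), and for fbp1a tfe3b (0.86) and bmp16 (0.84).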

How the data were processed

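The authors dissected livers, depleted ribosomal RNA, made directional libraries and sequenced paired reads, and deposited 1 table of raw counts per gene by Ensembl ID, with no normalization. The submitters' processing notes name cutadapt 1.16, STAR 2.7.9a, featureCounts 1.6.3 and the build GRCz11. Strand and multimapping settings are not given in the sources used here. Symbols came from a gene table, in which many IDs carry human-style symbols, and all 8 genes matched by symbol.

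Counts were tested with the two-sided quasi-likelihood test of edgeR 4.0.16 in R 4.3.3 with TMM scaling. A gene entered a fit if its libraries held at least 10 counts of it together, and the Benjamini-Hochberg method was applied over all genes of a fit at a threshold of 0.05. The 12 libraries of batches 7 to 9 were fitted with 1 mean per group, and the 18 WT libraries of 9 batches separately. DESeq2 1.42.0, other scalings and filters, the batch as a replicate block and leaving out each library were alternatives, and the fits were tested on simulated data. Totals of 16942574 to 36641566 counts limited the precision of low genes, such as gck in batches 2 to 7. No 2 libraries of a group held equal values. Nothing says that batches were separate clutches, so p-values measure the spread between these libraries.

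Batch numbers from the labels pair the libraries. Deviations from group means correlated at 0.466 on average within a batch (lowest 0.192, 18 pairs of groups and batches) and at 0.586 in the 18 WT libraries (lowest 0.345, 9 pairs).

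The 8 genes, the pathway lists and the marker lists were chosen with earlier results of these data known. The text names all 8 genes, the pathway genes past the threshold without or else with the block (at most 6 per contrast), and the 2 genes most correlated with each enzyme, of which 1 is not reported here.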

Additional observations from a re-analysis of the deposited data

Results flagged for a closer look

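Of 16 groups of 9 WT libraries examined for a library far from the rest, 2 were singled out, both for gck in batch 9, where chance alone singles out about 1 group in 20. In WT-NCD the value of WT-NCD 9, 313 CPM, lay far above the next library at 19.7 CPM. In WT-HCD the value of WT-HCD 9, 10.3 CPM, lay far above the next library at 4.02 CPM. The miR-21OE livers of batch 9 had 73.2 CPM on NCD and 2.63 CPM on HCD. Groups of 3 libraries were not examined.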

How the results depend on the processing

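The call of pklr in the averaged genotype contrast was the 1 call among the 8 genes and was lost in the fit of all 24 libraries with the batch block, which called 0, and in 5 of the 12 fits that left out 1 library without the block. Leaving out 1 library gave 0 to 1 calls there, 0 to 1 for genotype on HCD and 0 to 2 for diet in WT over 9 batches. DESeq2 with or without the block called 1 gene (pklr) for genotype on NCD and on HCD. With the block it called 415 and 340 of 21660 genes there, and without it 0.489% and 0.379%. Library totals with the block called 1 (pklr) on HCD, beside 57 of 21660 genes. For diet in WT, DESeq2 with the block called 3 of the 8 over 9 batches, beside 13.2% of all genes. Library totals with the block called 1 (fbp1a, adjusted p = 0.0136), beside 3820 of 23934 genes. The fit of all 24 libraries with the block, whose diet difference draws on all 9 WT batches, called 3, beside 8.13% of all genes. With TMM scaling and no library left out, adding the block to the edgeR fits of 12 and of 18 libraries changed no call among the 8 genes.

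The log2 fold changes that changed sign under an alternative were not called by the edgeR test without the block. Those of the averaged genotype contrast and of diet in WT over 9 batches are listed below. Signs changed in other contrasts too. Among these, the interaction of pklr went from -0.19 to 0.056 at most. For genotype on NCD, pck2 went from 0.16 to as low as -0.038 and gys2 from -0.12 to as high as 0.082. In the averaged genotype contrast gck went from 0.02 to -0.68 with the batch block, -0.92 by DESeq2 with the block, -0.64 with library totals and the block and -0.79 with all 24 libraries, and gys2 from 0.02 to -0.0034 by DESeq2 with the block and -0.00056 with all 24 libraries. For diet in WT, gys2 became 0.011 with library totals and fbp1a -0.091 in batches 5 to 9. Leaving out 1 library gave -1.64 to 1.72 for gck, -0.13 to 0.21 for gys2, -0.066 to 0.77 for fbp1a, -0.61 to 0.0014 for pck1 and -0.12 to 0.19 for pygl in the averaged contrast, and -0.0040 to 0.39 for fbp1a for diet in WT. The cause of these changes was not tested. Fits of batches 1 to 6, 1 to 4 and 5 to 9 with the block were added after the data were seen and called 0 of the 8 genes. They called 793 of 23420, 16 of 22757 and 200 of 21501 genes. With 3 libraries a group, and gck spread from 1.51 to 313 CPM in WT-NCD of the shared batches alone, differences the size of the SE could not be resolved.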
